A study of Mus musculus with 7 samples.

Results

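The 10 integrin genes described here were chosen by name as integrins known from myeloid cells: Itgam, Itgax, Itgal, Itgb2, Itga4, Itga5, Itga6, Itgav, Itgb1 and Itgb5. All 10 were found by exact symbol among the 23361 genes of the deposited table. They were measured by RNASeq in macrophages that were sorted from the regenerative bridge of the sciatic nerve, which was transected and repaired through an inert conduit in wild-type BALB/cJ mice. Of the 7 libraries, 3 were made 5 days, 2 were made 14 days and 2 were made 28 days after repair. There was no uninjured, sham-operated or differently treated group, so the time points were compared with each other. The age of these mice, and whether a library came from 1 mouse or from a pool, is not given in the sources used here, so the spread between libraries may be partly technical. Cells were sorted as negative for markers of granulocytes, eosinophils, lymphocytes, red blood cells and fibroblasts, and positive for F4/80, CD14, CD11b and CD16/32, and CD11b is the protein that Itgam encodes. All cells therefore carried CD11b on their surface on each day, and levels of Itgam describe cells that were selected for its product.

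Integrins are receptors of an α and a β chain that join a cell to the matrix or to other cells. The β2 chain Itgb2 is largely restricted to leukocytes. It pairs with Itgal to form LFA-1, a receptor for ICAM proteins, with Itgam to form Mac-1 (complement receptor 3), with Itgax to form p150,95 (complement receptor 4), and with Itgad. Itgax encodes CD11c, which is best known as a marker of dendritic cells but is also carried by many tissue macrophages. The β1 chain Itgb1 pairs with Itga4 to bind VCAM-1 and fibronectin, with Itga5 to bind fibronectin, and with Itga6 to bind laminin. Itgav, paired with Itgb5 or with other β chains, forms receptors for vitronectin and other ligands that carry the sequence RGD. Itgav with Itgb5 also takes part in the uptake of dying cells.

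The α-chain genes that pair with Itgb2 lie together on mouse chromosome 7, on the plus strand of GRCm38. Itgam spans positions 128062640 to 128118491 and Itgax positions 128129547 to 128150657, 11055 bases further on. Itgad starts 3718 bases past Itgax, whereas Itgal (127296260 to 127335138) ends 727501 bases before Itgam. Itgb2 is on chromosome 10 (77530252 to 77565708), Itga5 on the minus strand of chromosome 15 (103344286 to 103366763) and Itgb1 on chromosome 8 (128685654 to 128733200). The promoter windows of Itgam and Itgax are shown because the levels of these neighbouring genes are set against each other within each library further on. They run from 250 bases before to 50 bases after the transcription start, from RefSeq on GRCm38.p6. Capitals mark the letters GAGGAA on either strand (TTCCTC when read on the printed strand), the core that the myeloid factor PU.1 is known to bind.
Itgam, chr7:128062390-128062689, plus strand: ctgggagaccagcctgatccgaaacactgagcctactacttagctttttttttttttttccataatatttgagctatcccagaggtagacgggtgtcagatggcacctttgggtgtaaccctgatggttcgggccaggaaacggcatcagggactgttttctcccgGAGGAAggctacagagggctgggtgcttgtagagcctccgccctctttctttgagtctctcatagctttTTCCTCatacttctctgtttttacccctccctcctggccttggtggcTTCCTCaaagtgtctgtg
Itgax, chr7:128129300-128129599, plus strand: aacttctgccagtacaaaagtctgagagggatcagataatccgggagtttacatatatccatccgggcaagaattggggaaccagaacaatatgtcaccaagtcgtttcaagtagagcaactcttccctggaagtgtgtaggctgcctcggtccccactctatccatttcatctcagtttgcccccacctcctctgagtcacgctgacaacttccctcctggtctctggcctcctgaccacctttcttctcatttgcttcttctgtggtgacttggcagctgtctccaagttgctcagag

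The Itgam window held 3 matches and the Itgax window 0. RefSeq windows were at hand for 7 of the 10 genes. The Itgav window held 2 matches, the Itgb1 and Itga5 windows 1 each, and those of Itga4 and Itgb5 held 0. The same 6 letters stand in 28.3% of all 32851 promoter windows of this length, so a match describes the sequence alone.

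The libraries held 18027190 to 35247116 fragments assigned to genes, and with single-end sequencing 1 fragment is 1 read. Every member had at least 549 fragments in every library, so counting error was a small part of its level. The macrophage gene Csf1r stood at 406 to 493 FPKM (fragments per kilobase of transcript, scaled to the size of the library) in all 7 libraries. At day 28, 4 of 9 macrophage markers were called lower than at day 5, beside 7.51% of all genes. They were Fcgr1 (means of 162 and 48.2 FPKM at days 5 and 28), Aif1, and Emr1 and Cd14, whose products were gated on. Fcgr3, whose product CD16 was also gated on, did not fall, with means of 240 and 259 FPKM at days 5 and 28. The B cell gene Pax5 had at most 3 fragments in every library, and summed markers of T and NK cells, B cells and Schwann cells stayed under 2 FPKM. Summed endothelial markers ran from 6.12 to 27.5 FPKM, and those of eosinophils and mast cells from 1.22 to 4.87. The libraries of day 14 stood apart from each other. Over the 7613 genes whose mean FPKM reached 5, replicate 1 differed from the day 5 mean by 0.24 log2 units on average and from the day 28 mean by 0.305, whereas replicate 2 differed by 0.36 and 0.226. Of the 10 integrin genes, 8 in replicate 1 were nearer to day 5 and 8 in replicate 2 were nearer to day 28. The log2 fold changes quoted for single genes at day 14 vs day 5 are therefore also given without each of these libraries.

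Comparisons used the edgeR quasi-likelihood test on all 7 libraries with Benjamini-Hochberg adjustment over the 12858 genes tested. A gene with an adjusted p under 0.05 was called differentially expressed (DE). All 10 integrin genes passed the expression filter. Only 2 of them were DE in any comparison of this fit. Itgax rose and Itga5 fell from day 5 to day 14, and both were DE again between days 5 and 28. The shares of all genes called were 2.84% higher and 1.94% lower at day 14 than at day 5, and 7.74% higher and 7.51% lower at day 28 than at day 5. Thus 1 of 10 members in each direction stands beside a background of a few percent. No member was DE between days 14 and 28, when 0.0311% of all genes were called higher and 0.0311% lower. In that comparison, 1 member (Itga4) had an unadjusted p under 0.05, and DESeq2 and limma also called 0 members. A test for any change over the 3 time points called Itgax (adjusted p = 0.00783) and Itga5 (adjusted p = 0.0142), against 11.4% of all genes. The median log2 fold change of the 10 members was 0.00 at day 14 vs day 5 and 0.21 at day 28 vs day 5, beside 0.03 for all genes in both comparisons.

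**Figure D1:**
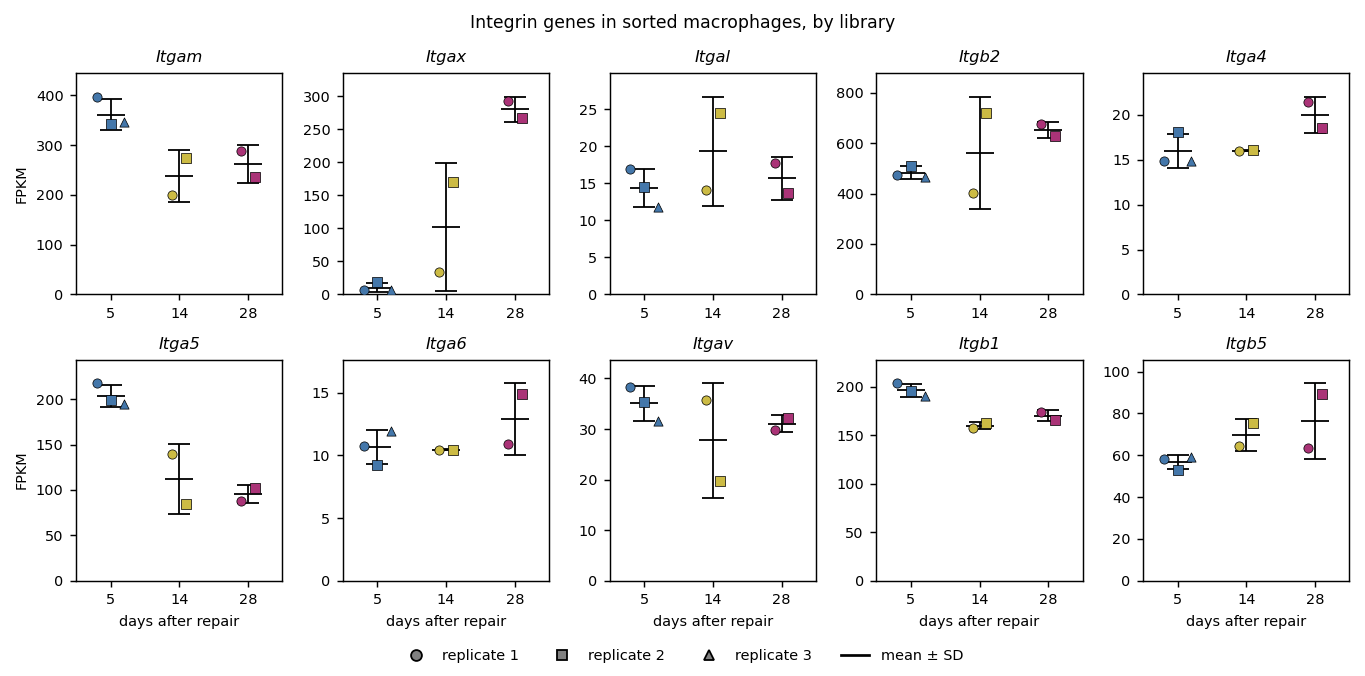
FPKM of each integrin gene (y axis, from 0) at 5, 14 and 28 days after repair (x axis), with 1 point per library and a line and bar for the mean ± SD of 3, 2 and 2 libraries. Itgax goes from at most 18.3 FPKM at day 5 to at least 267 at day 28, Itga5 falls from about 204 to 95.4, and the points of day 14 are far apart for Itgax, Itgb2, Itga5 and Itgav.

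Among the β2 family, Itgax showed the widest range. It stood at 6.41, 18.3 and 6.55 FPKM in the libraries of day 5, at 34.1 and 170 at day 14, and at 294 and 267 at day 28. The 3 time points did not overlap, and replicate 2 of day 14 was 5.00 times replicate 1. The mean rose from 10.4 ± 6.81 FPKM (SD, n = 3) to 102 ± 96.4 (SD, n = 2) and 281 ± 18.7 (SD, n = 2). By edgeR, Itgax was 27.2-fold higher at day 28 than at day 5 (log2 fold change 4.77, SE 0.66, adjusted p = 0.00291) and 9.94-fold higher at day 14 (3.31, SE 0.63, adjusted p = 0.0253). From day 14 to day 28 the log2 fold change was 1.46 (95% interval -0.07 to 2.98, adjusted p = 0.427). In a bulk population, more cells that carry a transcript and more transcript per cell cannot be told apart.

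The difference between days 5 and 28 passed the threshold without each of the 7 libraries in turn (log2 fold change 4.51 to 5.45, adjusted p = 1.24e-05 to 0.033 by edgeR). The call at day 14 rested on more. It was kept without day 5 replicate 2 (adjusted p = 0.0444) or day 14 replicate 1 (4.05, adjusted p = 0.000193). It was lost without day 14 replicate 2 (1.72, adjusted p = 0.064), without day 5 replicate 1 (3.06, adjusted p = 0.0961) or 3 (3.08, adjusted p = 0.0903), and without either library of day 28 (3.32, adjusted p = 0.0559 each). Without day 14 replicate 2, Itgax was DE between days 14 and 28 (3.05, adjusted p = 0.00892).

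Because Itgax is also a dendritic cell gene, 6 dendritic cell markers were examined beside it. Their summed level was 8.18 to 13 FPKM at day 5, 10.8 to 24.9 at day 14 and 19.8 to 30.4 at day 28. Ccr7, a chemokine receptor of mature dendritic cells, was the 1 marker of 6 called higher at day 28 than at day 5, beside 7.74% of all genes. It went from a mean of 6.64 to 17.8 FPKM (log2 fold change 1.43, adjusted p = 0.04 by edgeR). Cd209a was at 2.88, 2.8 and 3.24 FPKM at day 5, 6.89 and 2.4 at day 14, and 5.24 and 4.9 at day 28. Its libraries of day 28 lay above those of day 5, but it was not called (0.78, adjusted p = 0.183 by edgeR). Flt3, Zbtb46, Xcr1 and Clec9a, which define dendritic cells and their subsets, stayed under 2 FPKM in all 7 libraries. In day 14 replicate 2, where Itgax was 5.00 times as high as in replicate 1, Ccr7 was the lower of the pair, at 7.16 against 15.1 FPKM. The part of dendritic cells in the level of Itgax was not tested.

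Itgam was the most abundant α gene of the family at days 5 and 14. Its levels were 397, 341 and 346 FPKM at day 5, 201 and 275 at day 14, and 289 and 235 at day 28. All 4 later libraries lay under the 3 of day 5. The log2 fold changes from day 5 were -0.59 (SE 0.17, adjusted p = 0.0754) for day 14 and -0.45 (SE 0.17, adjusted p = 0.105) for day 28, and neither passed the threshold of edgeR. DESeq2 called both (adjusted p = 0.00692 and 0.0341). By edgeR, the value at day 14 was -0.38 without day 14 replicate 1 (adjusted p = 0.163) and -0.84 without replicate 2 (adjusted p = 0.0311), which passed. Itgam was also called at day 28 without day 14 replicate 1 (adjusted p = 0.0315) or 2 (adjusted p = 0.0305). Neutrophils are also rich in Itgam. Summed neutrophil markers were 314 to 346 FPKM at day 5, 567 to 571 at day 14 and 139 to 284 at day 28. Nearly all of this sum was S100a8, S100a9 and Csf3r. Cxcr2 was at 2.38, 4.43 and 3.55 FPKM at day 5, 5.31 and 6.5 at day 14, and 2.1 and 1.7 at day 28. Its level, like the sum, was thus highest at day 14. Ngp, Camp, Ltf, Mpo and Elane were at most 1.25 FPKM in any library. The part of neutrophils in the level of Itgam was not tested. The sort excluded cells with Ly6G, a granulocyte marker.

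Itgb2, the shared β chain, was the most abundant of the 10 genes at each time point. It stood at 472, 511 and 466 FPKM at day 5, at 402 and 717 at day 14, and at 675 and 628 at day 28. The day 28 libraries lay above those of day 5, and the libraries of day 14 lay on either side of both. Itgb2 had a log2 fold change of 0.45 between days 5 and 28 (SE 0.21, adjusted p = 0.18 by edgeR). At day 14 its direction against day 5 depended on the library. The log2 fold change was 0.22 with both, 0.59 without replicate 1 (adjusted p = 0.0165) and -0.26 without replicate 2 (adjusted p = 0.416). Leaving out a library of day 14 also brought the difference between days 5 and 28 past the threshold (adjusted p = 0.0148 without replicate 1, 0.0136 without replicate 2), and without replicate 2 Itgb2 was DE between days 14 and 28 (0.70, adjusted p = 0.0222).

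Itgal, the α chain of LFA-1, was low throughout. It measured 16.9, 14.5 and 11.8 FPKM at day 5, 14.1 and 24.5 at day 14, and 17.7 and 13.6 at day 28, with overlap between all time points. It was not DE in any comparison with all libraries. Without day 14 replicate 1 it was called higher at day 14 than at day 5 (log2 fold change 0.78, adjusted p = 0.0222 by edgeR), whereas without replicate 2 the value was -0.02 (adjusted p = 0.97). Itgad, which is not among the 10, had 0 to 12 fragments per library. A count of 0 allows up to 3 fragments.

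Since FPKM values are adjusted for transcript length, the 4 α genes could be set against each other within a library. Itgam made up 94.4%, 91.2% and 94.9% of their summed FPKM in the libraries of day 5, 80.6% and 58.5% at day 14, and 48.1% and 45.6% at day 28. The share of Itgax was 1.53%, 4.89% and 1.8% at day 5, 13.7% and 36.3% at day 14, and 48.9% and 51.8% at day 28. Thus the level of Itgam was 18.7 to 61.9 times that of Itgax in the day 5 libraries, and 0.983 and 0.881 times at day 28. Itgal kept between 2.64% and 5.67%. The summed level of the 4 α genes ranged from 0.618 to 0.889 of that of Itgb2, and the ranges of days 5 and 28 overlapped (0.733 to 0.889 and 0.822 to 0.889). These are shares of transcripts, and the amount of each receptor on the cell surface was not measured. Itgam, Itgax and Itgad are related in sequence, and how reads that map to several genes were shared is not given in the sources used here.

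**Figure D2:**
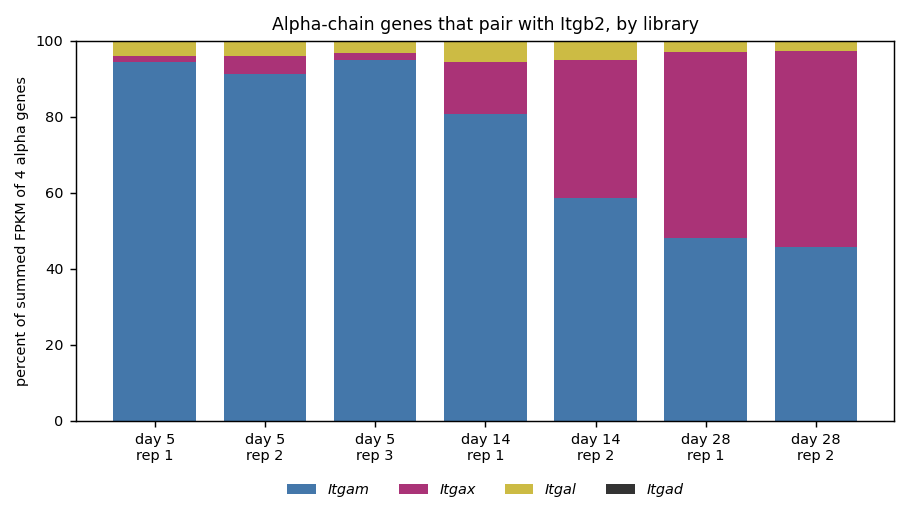
Share of each α-chain gene in the summed FPKM of Itgam, Itgax, Itgal and Itgad (y axis, percent), in 1 stacked bar for each of the 7 libraries (x axis). The share of Itgax is 1.53% to 4.89% at day 5, 13.7% and 36.3% at day 14 and 48.9% to 51.8% at day 28, and Itgad is too low to be visible.

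Among the β1 family, Itga5, the α chain of the classical fibronectin receptor, fell. It stood at 218, 199 and 194 FPKM at day 5, at 140 and 84.8 at day 14, and at 88.3 and 102 at day 28. Each later library was under each library of day 5, and replicate 2 of day 14 was below both libraries of day 28. The mean went from 204 ± 12.4 FPKM (SD, n = 3) to 112 ± 38.6 (SD, n = 2) and 95.4 ± 9.97 (SD, n = 2). By edgeR, Itga5 was lower at day 28 than at day 5 (log2 fold change -1.08, SE 0.20, adjusted p = 0.00871), a 2.11-fold difference. It was 1.81-fold lower at day 14 (-0.85, SE 0.20, adjusted p = 0.0424). The day 28 call was lost without day 28 replicate 1 (-0.98, adjusted p = 0.0907) and kept without each of the other 6 libraries. The call at day 14 was kept without day 14 replicate 1 (-1.25, adjusted p = 0.000744). It was lost without day 14 replicate 2 (-0.54, adjusted p = 0.0961), without day 5 replicate 1, 2 or 3 (adjusted p = 0.127, 0.118 and 0.107), and without day 28 replicate 1 or 2 (adjusted p = 0.068 and 0.0686).

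Itgb1, the chain that Itga5 pairs with, varied little. Its levels were 203, 195 and 190 FPKM at day 5, 157 and 162 at day 14, and 174 and 166 at day 28. The later libraries all lay below day 5, and the log2 fold changes of -0.29 (adjusted p = 0.151) for day 14 and -0.19 (adjusted p = 0.261) for day 28 did not pass the threshold of edgeR. The value for day 14 was -0.26 without day 14 replicate 1 and -0.32 without replicate 2 (adjusted p = 0.241 and 0.286). The level of Itga5 over that of Itgb1 was 1.07, 1.02 and 1.02 in the libraries of day 5, 0.889 and 0.524 at day 14, and 0.508 and 0.617 at day 28. The other α partners were lower. Itga4, which binds VCAM-1 and fibronectin, stood at 14.9, 18.1 and 14.9 FPKM at day 5, 15.96 and 16.1 at day 14, and 21.4 and 18.5 at day 28 (day 28 vs day 5: log2 fold change 0.34, adjusted p = 0.108). Itga6, a laminin receptor chain, ranged from 9.24 to 14.9 FPKM over all libraries (0.28, adjusted p = 0.247). Of the summed level of Itga4, Itga5 and Itga6, Itga5 made up 87.8% to 89.5% at day 5, 76.2% and 84.1% at day 14, and 73.2% and 75.4% at day 28.

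Among the receptors for vitronectin, Itgb5 was at 58.2, 52.8 and 59.3 FPKM at day 5, 64.5 and 75.3 at day 14, and 63.5 and 89.2 at day 28. Each later library was above day 5, and the log2 fold change at day 28 was 0.44 (SE 0.15, adjusted p = 0.086 by edgeR). Without day 14 replicate 1 or 2 it passed the threshold (adjusted p = 0.0456 and 0.0472). Its partner Itgav was at 38.4, 35.4 and 31.5 FPKM at day 5, at 35.8 and 19.8 at day 14, and at 29.8 and 32.3 at day 28. The 2 time points apart from day 14 overlapped, and only day 14 replicate 2 was low. Without day 14 replicate 1, Itgav was called lower at day 14 than at day 5 (-0.81, adjusted p = 0.00642), whereas without replicate 2 the value was 0.03 (adjusted p = 0.947).

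**Figure D3:**
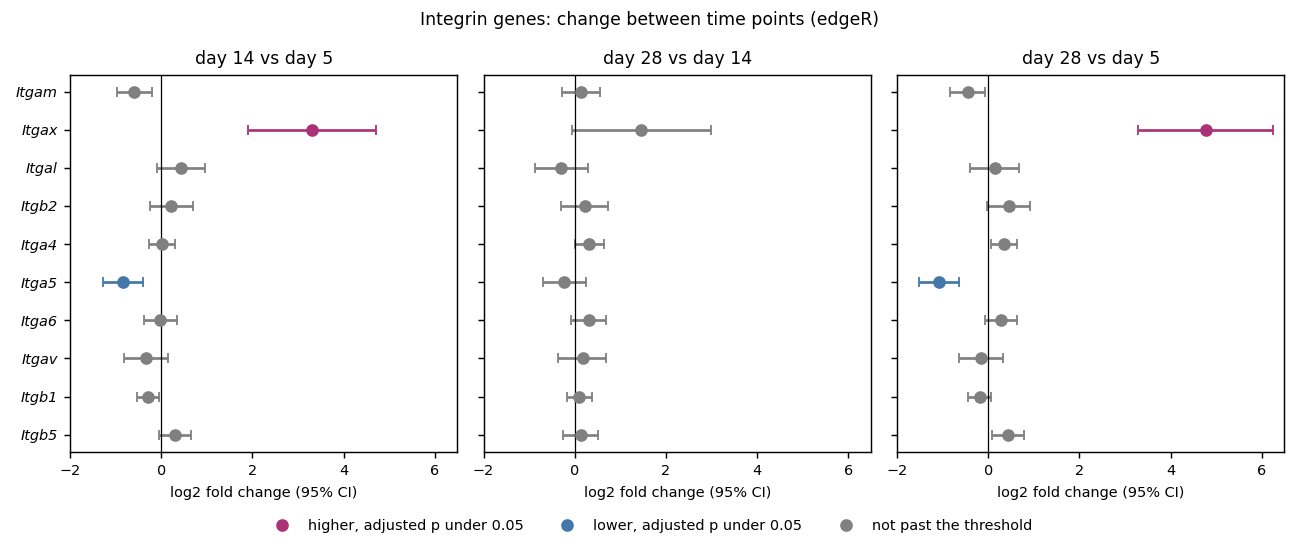
Log2 fold change (x axis, points) with its 95% confidence interval (bars) for the 10 integrin genes (rows) in the 3 comparisons of edgeR, 1 panel each. Itgax lies at 3.31 and 4.77 against day 5 and Itga5 at -0.85 and -1.08, both coloured as DE, and no gene is coloured between days 14 and 28.

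The order of the 10 genes by mean FPKM changed mainly through Itgax. This gene was the lowest at day 5, though its range overlapped those of Itga6, Itgal and Itga4. It took rank 5 at day 14, overlapping Itgb1, Itga5, Itgb5 and Itgav, and rank 2 at day 28, overlapping Itgam. Itgb2 held rank 1 on each day and did not overlap the next gene. At day 5, Itgb2 (483 FPKM) was followed by Itgam (361), then by Itga5 and Itgb1 (204 and 196), which overlapped, and by Itgb5 (56.8) and Itgav (35.1). Itga4, Itgal and Itga6 were at 10.7 to 15.97 FPKM with overlapping neighbours. At day 28 the order was Itgb2 (651), Itgax (281), Itgam (262), Itgb1 (170), Itga5 (95.4) and Itgb5 (76.3), and Itga5 and Itgb5 overlapped.

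The genes most like each member over the 7 libraries were sought among the 7556 tested genes whose mean FPKM reached 5, by the Euclidean distance between log2(FPKM + 1) values centred on the mean of each gene. Nearest to Itgax were Ephx1 (distance 1.37), Mmp12 (1.43) and Mt3 (1.59). Mt3 was at 0.135 to 0.288 FPKM at day 5, with as few as 1 fragment in a library, and reached a mean of 5 only through later libraries. Ephx1, an epoxide hydrolase, was at 1.26, 4.84 and 1.65 FPKM at day 5, 16.4 and 45.7 at day 14, and 47.6 and 45.5 at day 28. Mmp12, the macrophage elastase, went from 18.7, 42.8 and 26.2 FPKM at day 5 to 36.5 and 251 at day 14 and 633 and 431 at day 28. As for Itgax, both genes were highest at day 5 in replicate 2 and much higher in day 14 replicate 2 than in replicate 1. Nearest to Itgam were Fbxl5 (0.235) and the glycolytic genes Pgk1 (0.238) and Eno1 (0.298). Nearest to Itga5 were Cdc42ep4 (0.154), 2310022A10Rik (0.176) and Basp1 (0.197). Cdc42ep4, an effector of the GTPase Cdc42, was at 129, 118 and 121 FPKM at day 5, 76.9 and 52.8 at day 14, and 54.2 and 62.7 at day 28. The actin-bundling gene Lcp1 (0.0794), Map3k7 (0.0887) and Dnttip2 (0.0934) were nearest to Itgb1. Nuak2 (0.0785), Pja1 (0.225) and Ccnd1 (0.228) were nearest to Itgb5, and Sfxn1 (0.13), Bnip1 (0.133) and Golm1 (0.144) to Itgb2. For Itgav they were Gna13 (0.127), St3gal1 (0.161) and Smim3 (0.186), and for Itga4 they were Ppa1 (0.144), Foxj3 (0.164) and Ugdh (0.17). For Itga6 they were Cxxc1 (0.224), Gpn3 (0.242) and Zfp395 (0.252), and for Itgal Hddc2 (0.324), Lsmd1 (0.366) and Ap4s1 (0.402). The distances are descriptions over 7 libraries that share the split of day 14. They were not scaled to the range of a gene, so they grow with that range. The larger distances of Itgax, which varied most, therefore do not show that it had fewer genes like it.

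Of 16 further integrin genes, 12 passed the expression filter. None was higher in any comparison, and 2 were lower at day 14 and 3 at day 28 than at day 5. Their median log2 fold change at day 28 was -0.42, beside 0.03 for all genes. Of all genes, 2.84% were higher and 1.94% lower at day 14, and 7.74% and 7.51% at day 28. Itgb7, which pairs with Itga4 in lymphocyte homing, fell from 62.4, 58.1 and 64.0 FPKM at day 5 to 42.1 and 23.3 at day 14 and 27.2 and 28.9 at day 28 (log2 fold change at day 28 -1.12, SE 0.21, adjusted p = 0.00953 by edgeR). Itga9, a receptor chain for tenascin and osteopontin, fell from 16.6, 11.8 and 13.5 FPKM to 4.35 and 5.97 at day 28 (-1.43, SE 0.20, adjusted p = 0.0031). Itga1, a collagen receptor chain, was at 1.95 to 2.5 FPKM at day 5 and 1.02 to 1.28 at day 28 (-0.94, adjusted p = 0.0183). At day 14 vs day 5 the log2 fold changes were -0.91 for Itgb7 and -0.96 for Itga1 (adjusted p = 0.0436 and 0.0385 by edgeR). Without day 14 replicate 2 they were -0.54 and -1.16. The call of Itga9 held without each library. The call of Itgb7 at day 28 was lost without day 28 replicate 1 (adjusted p = 0.0944) or 2 (adjusted p = 0.0565), and 1 of the 3 genes was left without day 28 replicate 1. At day 14 the list had 0 calls without any 1 of 6 libraries. Without day 14 replicate 1 it had 2, of which Itgb7 (-1.38, adjusted p = 0.000218) was also called with all libraries, whereas Itga1 (-0.80, adjusted p = 0.064) was not called any more.

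Of 32 genes of integrin activation and signalling, 31 were tested. At day 28, 3 were higher and 6 lower than at day 5, and 22 did not pass the test. The median log2 fold change was -0.17. The shares of all genes were 7.74% higher and 7.51% lower at day 28, and 2.84% and 1.94% at day 14. Among the adapters that switch integrins on, the talin gene Tln1, the kindlin gene Fermt3 and Apbb1ip (RIAM) were not called (adjusted p = 0.164, 0.0519 and 0.832). Tln1, for example, lay between 116 and 163 FPKM, and Fermt3 between 104 and 146. Rap1b, a small GTPase that drives integrin activation, fell from 748, 687 and 652 FPKM at day 5 to 459 and 395 at day 28 (-0.69, SE 0.15, adjusted p = 0.0171 by edgeR). Fyb (ADAP), an adapter in the path to β2 integrins, fell from 163, 162 and 153 FPKM to 83.4 and 97.9 (-0.80, SE 0.14, adjusted p = 0.00766). Cyth1 (cytohesin-1), which binds the tail of the β2 chain, fell from 90.1, 95.5 and 106 FPKM to 55.5 and 59.1 (-0.75, SE 0.15, adjusted p = 0.0116). The Src family kinase Lyn was lower at day 28 (-0.62, adjusted p = 0.0116), whereas Src itself was higher (1.10, adjusted p = 0.0214), going from 27.6, 16.2 and 13.2 to 40.1 and 40.6 FPKM. Tln2 and Dok1 were also higher and Sharpin lower. Filamin A (Flna) and paxillin (Pxn), abundant links of integrins to actin, had log2 fold changes of -0.02 and -0.50 (adjusted p = 0.944 and 0.059). At day 14, vinculin (Vcl, -0.59, adjusted p = 0.0366) and Cyth1 (-0.63, adjusted p = 0.0451) were lower than at day 5. Without day 14 replicate 1 the values were -0.43 for Vcl (adjusted p = 0.0518) and -0.85 for Cyth1 (adjusted p = 0.00389), and without replicate 2 they were -0.77 (adjusted p = 0.0151) and -0.43 (adjusted p = 0.174). The calls of this list depended on single libraries, as did those of all genes. Without day 5 replicate 1, 2 or 3 there were 5, 2 and 5 calls at day 28 vs day 5. Over all genes the same fits called 820, 917 and 970, against 995 higher and 965 lower with all libraries. The 2 calls at day 14 became 4 without day 14 replicate 1, 1 without day 14 replicate 2 or day 5 replicate 1, and 0 without any of the other 4 libraries.

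**Figure D4:**
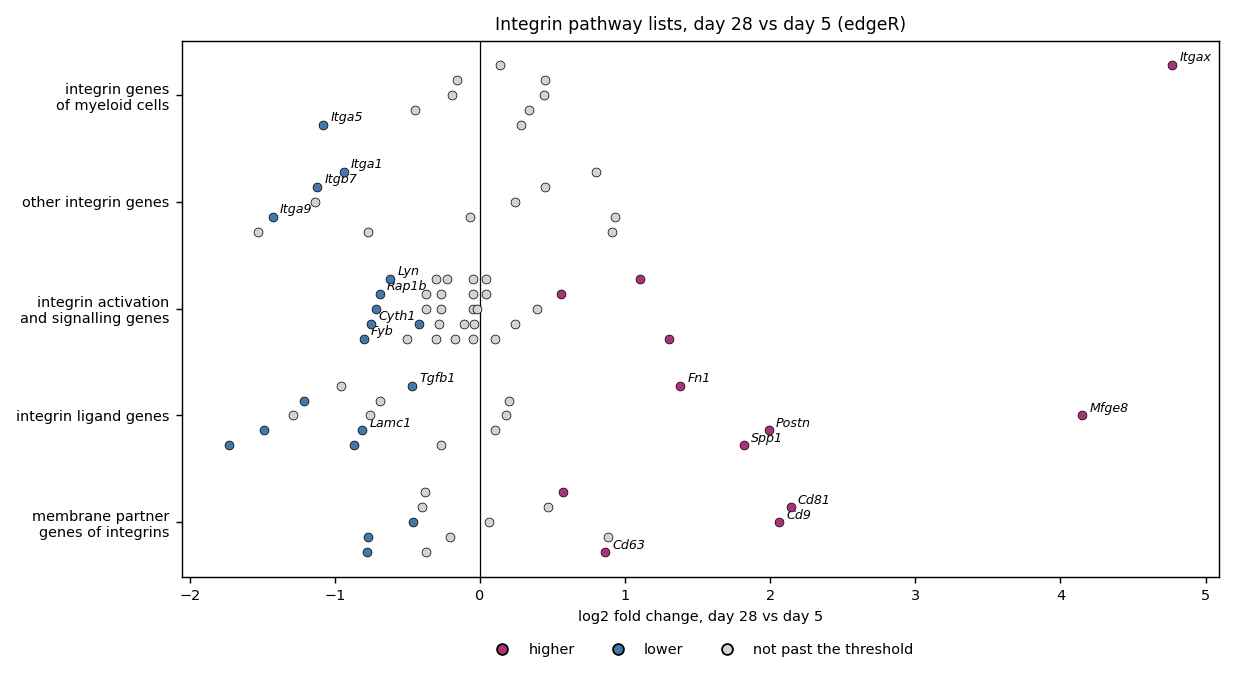
Log2 fold change between days 28 and 5 (x axis) for each tested gene of the 10 integrin genes and of 4 lists of related genes (rows, points spread vertically for legibility), coloured by whether edgeR called it higher or lower. Itgax (4.77) and the ligand gene Mfge8 (4.15) lie farthest to the right, and the 3 called genes among the other integrins are all lower.

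Of 24 genes of integrin ligands, 18 were tested, and at day 28 4 were higher and 6 lower than at day 5. Their median log2 fold change was -0.58. The shares of all genes were 7.74% higher and 7.51% lower at day 28, and 2.84% and 1.94% at day 14. Mfge8, Spp1, Fn1 and Postn rose. Mfge8, the bridge between αv integrins and dying cells, rose from 6.22, 7.59 and 5.67 FPKM at day 5 to 18.7 and 48.7 at day 14 and 96.0 and 132 at day 28. It was 17.7-fold higher at day 28 (log2 fold change 4.15, SE 0.36, adjusted p = 0.000541 by edgeR) and 5.24-fold higher at day 14 (2.39, adjusted p = 0.0134). The value at day 14 was 2.93 without day 14 replicate 1 (adjusted p = 1.67e-05) and 1.51 without replicate 2 (adjusted p = 0.00437). The day 14 call was lost without day 5 replicate 1 (adjusted p = 0.0583) or 3 (adjusted p = 0.0639). Spp1 (osteopontin) rose from 780, 1225 and 933 FPKM at day 5 to 3733 and 3095 at day 28 (1.82, SE 0.26, adjusted p = 0.00345). Fn1 (fibronectin), the ligand of Itga5 with Itgb1, rose from 555, 867 and 713 FPKM to 1849 and 1825 (1.38, SE 0.31, adjusted p = 0.0185). In day 14 replicate 2, Fn1 was at 1742 FPKM, a little under both libraries of day 28, and in replicate 1 at 753, within the range of day 5. Each library of day 28 was thus above each of day 5 for Fn1 and below each of them for Itga5. Postn (periostin), mostly a fibroblast product, was low, at 0.514 to 1.90 FPKM at day 5, 9.54 and 4.96 at day 14, and 4.54 and 4.22 at day 28 (day 28 vs day 5: 1.99, adjusted p = 0.0185). Summed fibroblast markers were at 28.8 to 74.1 FPKM at day 5, 81.2 to 223 at day 14 and 35.6 to 57 at day 28. They were thus above day 5 at day 14, as Postn was, but within the range of day 5 at day 28, when 0 of 7 markers were called. Their part in the level of Postn was not tested.

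Of the ligand genes that fell, Lamc1, a laminin chain, went from 20.7, 21.4 and 19.2 FPKM at day 5 to 14.6 and 14.1 at day 14 and 11.1 and 12.0 at day 28 (-0.81, SE 0.11, adjusted p = 0.0026 by edgeR). Tgfb1, whose latent form αv integrins can activate, went from 249, 244 and 223 FPKM to 153 and 188 (-0.47, SE 0.13, adjusted p = 0.0378). Icam1, Thbs1, C3 and Jam2 fell as well. Icam1, the ligand of LFA-1 and Mac-1, was at 271, 218 and 186 FPKM at day 5 and 110 and 134 at day 28 (-0.87, adjusted p = 0.0216), and C3, the source of the iC3b that Mac-1 and p150,95 bind, was at 150, 100 and 111 FPKM and then 47.5 and 55.3 (-1.21, adjusted p = 0.00721). Thbs1 (thrombospondin), also a product of platelets, fell by 1.73 on the log2 scale (adjusted p = 0.0331). Summed platelet markers were at 1481 to 2121 FPKM at day 5 and 266 to 342 at day 28. Nearly all of this sum was Pf4, which fell by 2.61 on the log2 scale, and Ppbp fell as well. Gp1ba, Gp9 and Gp1bb were at most 1.02 FPKM in any library, and Gp1ba had means of 0.0489 and 0.313 FPKM at days 5 and 28 (adjusted p = 0.0597). The part of platelets was not tested. The calls of Mfge8, Spp1 and Lamc1 at day 28 held without each library. The count of 10 ligand calls was 3 without day 28 replicate 1 and 5 without day 28 replicate 2 or day 5 replicate 1 or 2. Without day 28 replicate 1, Fn1 had an adjusted p of 0.112, Postn of 0.115, Icam1 of 0.16, Thbs1 of 0.213, C3 of 0.0834 and Tgfb1 of 0.206. At day 14, 2 ligand genes were higher and 1 lower with all libraries, and 7 were called without day 14 replicate 1 and 0 without day 5 replicate 3.

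**Figure D5:**
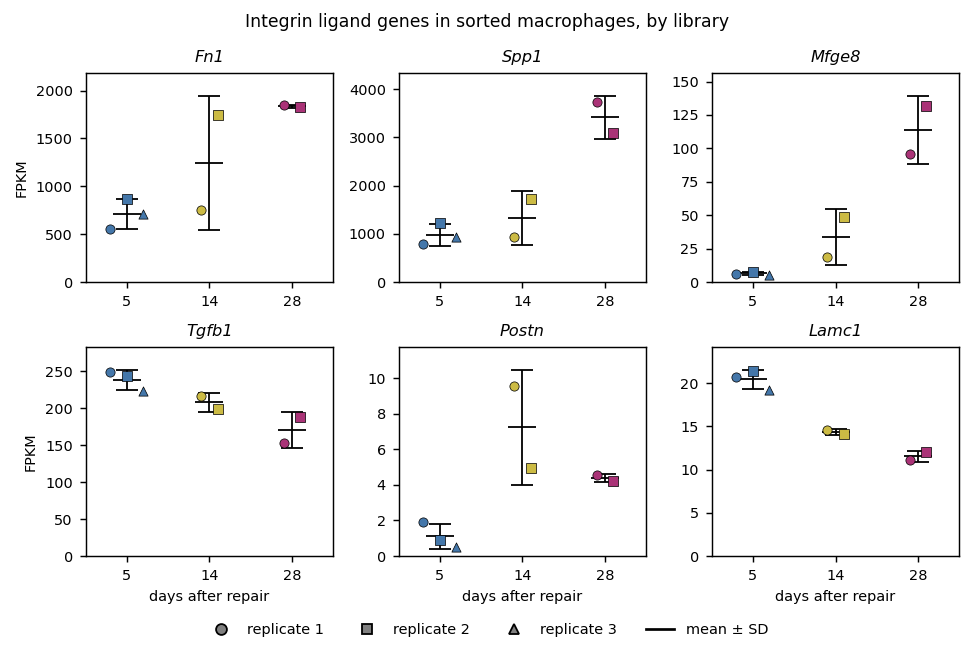
FPKM of 6 integrin ligand genes (y axis, from 0) at 5, 14 and 28 days after repair (x axis), with 1 point per library and a line and bar for the mean ± SD of 3, 2 and 2 libraries. Mfge8, Spp1 and Fn1 are highest at day 28, Tgfb1 and Lamc1 are lowest there, and Postn is highest in replicate 1 of day 14.

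All 14 genes of membrane partners were tested. At day 28, 4 were higher and 3 lower than at day 5, and the median log2 fold change was -0.07. The shares of all genes were 7.74% higher and 7.51% lower at day 28, and 2.84% and 1.94% at day 14. Of the 8 tetraspanins in this list, membrane proteins that gather integrins in the membrane, 4 rose, 1 fell and 3 did not pass the test. Those 3 were Cd37 (-0.21, adjusted p = 0.227), Cd53 (-0.38, adjusted p = 0.159) and Cd82 (0.06, adjusted p = 0.766). Cd81 rose from 4.52, 4.98 and 4.85 FPKM at day 5 to 21.4 and 16.9 at day 14 and 17.7 and 24.3 at day 28 (2.14, SE 0.18, adjusted p = 0.000541 by edgeR). Cd9 rose from 124, 166 and 122 FPKM to 225 and 489 at day 14 and 647 and 489 at day 28 (2.06, SE 0.29, adjusted p = 0.00313). Cd63 rose from 705, 610 and 605 FPKM to 1232 and 1067 at day 28 (0.86, SE 0.13, adjusted p = 0.00357), and Cd151 was higher as well (0.57, adjusted p = 0.0236). The tetraspanin that fell was Tspan4 (-0.78, adjusted p = 0.00742), and Bsg and Cd47 were also lower. Cd47, a partner of β3 integrins that is known as a signal against uptake, had a log2 fold change of -0.77 (adjusted p = 0.00963). Plaur, the urokinase receptor, which associates with Mac-1, was lower at day 14 (-0.71, adjusted p = 0.0253) but not called at day 28 (-0.40, adjusted p = 0.0694). The value of Plaur at day 14 was -0.86 without day 14 replicate 1 (adjusted p = 0.00384) and -0.56 without replicate 2 (adjusted p = 0.076). Cd36, a scavenger receptor, was at 267, 342 and 313 FPKM at day 5 and 689 and 437 at day 28 (0.88, adjusted p = 0.0512). The calls of Cd81, Cd9 and Cd63 at day 28 held without each library, whereas the count of 7 fell to 4 without either library of day 28 and rose to 10 without either library of day 14. The calls at day 14 numbered 4 with all libraries, 6 without day 14 replicate 1, and 1 without day 14 replicate 2 or any library of day 5. Src, Icam1, Thbs1, C3, Jam2, Tln2, Dok1, Sharpin, Cd37, Cd53, Cd82, Cd151, Cd47, Tspan4 and Bsg, and Tln1, Fermt3 and Apbb1ip, are not covered by the rule for named genes and were picked once their values were known. Between days 14 and 28, edgeR called 0 genes in each of the 4 lists. An unadjusted p under 0.05 was reached by 1 of the further integrins, 4 signalling genes, 9 ligand genes and 5 partner genes. DESeq2 called 1, 0, 5 and 1 of them and limma 0 in each list, and without day 14 replicate 2 edgeR called 2, 0, 7 and 3.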

How the data were processed

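RNASeq values of 7 libraries of sorted macrophages were used. Per the labels and the study's methods, the authors isolated polyA+ RNA and sequenced it single-end. Trimming was by cutadapt 1.8, mapping to mm10 by TopHat2 2.0.13 with a reference annotation, and quantification by Cuffdiff 2.2.1. The authors deposited, for each gene and library, an estimated count of fragments, the same count after scaling libraries to a common size (a scaled signal), and FPKM. Of the deposited count values, 1.01% were not whole, and counts were rounded. All per-sample values belonged to labelled samples. The authors' own quantification had failed for 8 values in the table, and 0 of these were of the integrin genes.

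The main test was the quasi-likelihood F test of edgeR 4.0.16 on the counts, run in R 4.3.3 (scaling by TMM, filterByExpr, time point as the only factor, all 7 libraries in 1 fit) as contrasts and as an F test for any change, with Benjamini-Hochberg adjustment. Alternatives were DESeq2 1.42.0, RLE and cuffdiff scaling, no expression filter, limma 3.58.1 on log2 FPKM with a pseudocount of 1 or 0.1, fits limited to 2 time points, a replicate block, and leaving out each library. Scripts were tested on simulated data. A floor of 3 fragments covers counting error only. Libraries of 1 day differed by more than sampling noise (chi-square per degree of freedom 16.4 to 65.9), so none was merged. The replicate numbers come from the labels, which name no shared animal or day.

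Genes named were all 10 members, the 3 most abundant tested genes of each list, and up to 3 DE genes per comparison with the lowest adjusted p, beside the 3 genes most like each member. Some genes of the lists are not reported here by name. The members, lists and tests were chosen with earlier results of these data known. Coordinates are those of GENCODE on GRCm38, and plots and tables were made with Python 3.11.15, numpy 2.4.6, pandas 2.3.3 and matplotlib 3.10.9.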

Additional observations from a re-analysis of the deposited data

How the results depend on the processing

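Of the 450 values computed for single integrin genes under other settings, 395 kept their direction and their side of the threshold. In 20 a call was lost, in 19 one was gained and in 16 the sign changed. All 20 losses fell on the 4 called values, as the rest had no call to lose. The call of Itgax at day 14 vs day 5 was lost in 5 of 7 fits without 1 library and 4 of 8 other settings. That of Itga5 at day 14 vs day 5 was lost in 6 of 7 and 4 of 8. Of the 4 called values of Itgax and Itga5, 0 changed sign. The call of Itgax at day 28 vs day 5 was kept under every setting listed in the methods, and that of Itga5 was lost without day 28 replicate 1 alone. With 2 libraries at days 14 and 28, leaving one out leaves a lone sample that is assumed to vary like the other groups. The cause of the changes below was not tested.

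Of the 10 integrin genes, 2 were called at day 14 vs day 5 in the fit described, and 0 by limma with either pseudocount, on the 2 time points alone or with the replicate block (0 to 5 with a library left out). Against day 14, the count of 0 at day 28 became 0 to 2 with a library left out. Against day 5, the count of 2 at day 28 became 5 on the 2 time points alone and 1 to 5 with a library left out. For any change it became 1 with the replicate block and 0 to 5 with a library left out.

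For the further integrin genes, the count of 2 at day 14 vs day 5 was 0 by limma with either pseudocount, on the 2 time points alone and with the block, and 0 to 2 with a library left out. From day 14 to day 28 it was 1 by DESeq2 and 1 without the filter, against 0, and 0 to 2 with a library left out. From day 5 to day 28 the count of 3 was 1 to 3 with a library left out. For the signalling genes, the count of 2 at day 14 vs day 5 was 5 by DESeq2, 6 without the filter, 0 and 1 by limma with pseudocounts 1 and 0.1, 0 on the 2 time points alone and 0 with the block, and 0 to 4 with a library left out. From day 5 to day 28 the count of 9 was 5 with the block and 0 to 12 with a library left out. For the ligand genes, the count of 3 at day 14 vs day 5 was 5 by DESeq2, 7 without the filter, 0 with the block and 0 to 7 with a library left out. From day 14 to day 28 it was 5 by DESeq2 and 5 without the filter, against 0, and 0 to 7 with a library left out, and at day 28 vs day 5 the count of 10 was 3 to 10. For the membrane partners, the count of 4 at day 14 vs day 5 was 2 by limma with either pseudocount and on the 2 time points alone, 0 with the block, and 1 to 6 with a library left out. From day 14 to day 28 it was 1 by DESeq2 and 1 without the filter, against 0, and 0 to 3 with a library left out, and at day 28 vs day 5 the count of 7 was 4 to 10. Of the 29 calls of list genes at day 28 vs day 5, 7 were kept under every setting (Itga9, Spp1, Mfge8, Lamc1, Cd9, Cd63 and Cd81), and of the 11 at day 14 vs day 5, 0 were. None of these changed sign.

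The values that changed sign were small. With the replicate block, the log2 fold changes at day 14 vs day 5 were -0.03 for Itga4 and 0.07 for Itga6. With a library left out, the lowest and highest log2 fold changes at day 14 vs day 5 were -0.02 and 0.78 for Itgal, -0.26 and 0.59 for Itgb2, -0.03 and 0.12 for Itga4, -0.11 and 0.08 for Itga6, and -0.81 and 0.03 for Itgav. At day 28 vs day 14 they were -0.07 and 0.40 for Itgam, -0.64 and 0.16 for Itgal, -0.14 and 0.70 for Itgb2, -0.54 and 0.17 for Itga5, -0.19 and 0.65 for Itgav, and -0.14 and 0.35 for Itgb5. At day 28 vs day 5 they were -0.07 and 0.31 for Itgal.

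The replicate numbers were not treated as pairs. Between libraries that share a number, the departures from the mean of the day had a correlation of 0.175 and 0.0449 for days 5 and 14, -0.0538 for days 14 and 28, and 0.0842 and 0.0249 for days 5 and 28 over 7613 genes. The replicate block reduced the residual degrees of freedom from 4 to 2 and called 6, 0 and 735 of all genes in the 3 comparisons. With the block, Itgax had a log2 fold change of 2.92 (adjusted p = 0.0855) at day 14 vs day 5 and Itga5 an adjusted p of 0.119.

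Over all genes, DESeq2 called 1366 for day 14 against day 5, 332 for day 28 against day 14 and 2485 for day 28 against day 5. Without the filter edgeR called 1429, 390 and 2466, and limma with a pseudocount of 1 called 252, 0 and 1802. Fits on the 2 time points alone called 315, 0 and 2778. Without day 5 replicate 1, 2 or 3, edgeR called 63, 109 and 52 at day 14 vs day 5. With all libraries, 365 were higher and 249 lower there. At day 28 vs day 5 the same fits called 820, 917 and 970, against 995 higher and 965 lower. The changes in the list counts under the same settings stand beside these. Counts over all genes without a library of day 14 or 28, where a lone library is left on that day, are not given here.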
